A study of Mus musculus with 6 samples.

Results

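Apoptosis genes of the BCL2 and death-receptor pathways were followed in mouse liver RNA-seq. The 9 genes were chosen by symbol, and all 9 were found among the 18443 genes with a row in the libraries. They were the BH3-only genes Bcl2l11 (NCBI gene 12125, BIM) and Bid (12122), the effector gene Bak1 (12018), the survival genes Bcl2 (12043), Bcl2l1 (12048, BCL-XL) and Mcl1 (17210), the death-receptor genes Fas (14102) and Tnfrsf10b (21933, TRAIL receptor), and Casp8 (12370), the initiator caspase of the receptor pathway.

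The livers came from 6 conditions, each sequenced as 1 library by BGISEQ-500, in male mice labelled as C57BL/6 (C57BL/6J in the methods). Their age is given as 6 to 8 weeks. This is less than the 16 weeks of diet, so it was read as the age at the start. The age at which the livers were taken is not stated, and the diet and CCl4 models ran for unlike times. In the diet model, CD was the control on the study's standard diet and HFD a high-fat diet fed for 16 weeks. JT003-HFD was the same diet with JT003 at 0.5 mg/kg injected daily for 4 weeks. In the CCl4 model, Oil was the corn oil control and CCl4 was 20% carbon tetrachloride in corn oil, injected at 5 ml/kg every 3 days for 6 weeks. JT003-Fibrosis was CCl4 with JT003 at 0.5 mg/kg daily for 3 weeks. JT003 is a peptide agonist of the adiponectin receptors AdipoR1 and AdipoR2, and all mice were fasted for 8 h before the livers were taken. Groups held 6 mice, and whether a library pools mice is not stated. The label of the HFD library reads NASH. The methods keep that name for a high-fat diet combined in its last weeks with a diet deficient in methionine and choline, but the paper's results also use it for mice on 16 weeks of high-fat diet. The paper describes its RNA-seq mice as given standard diet, high-fat diet, or high-fat diet plus JT003, and does not name the deficient diet for them.

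Apoptosis is decided at the outer mitochondrial membrane, where the survival proteins BCL2, BCL-XL and MCL1 bind and restrain the BH3-only proteins and the pore-forming proteins BAX and BAK. BH3-only proteins report upstream stress, and BIM is known as a target of the endoplasmic reticulum stress response. Death receptors such as FAS activate caspase-8, and in hepatocytes caspase-8 also has to cleave BID so that the signal reaches the mitochondria. MCL1 and BCL-XL are the survival proteins on which hepatocytes are known to depend.

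To show the genes on which the results turn, windows of 300 bases around their starts (250 bases before the start site) were taken from RefSeq on build GRCm38.p6. In these windows capitals mark the GC box GGGCGG and the CCAAT box on either strand. Windows were listed for 8 of the 9 genes. The window of Bid lies at chr6:120916775-120917074 on the minus strand, that of Casp8 at chr1:58802252-58802551 on the plus strand, and the most upstream of 3 windows of Bcl2l1 at chr2:152831679-152831978 on the minus strand.
Bid: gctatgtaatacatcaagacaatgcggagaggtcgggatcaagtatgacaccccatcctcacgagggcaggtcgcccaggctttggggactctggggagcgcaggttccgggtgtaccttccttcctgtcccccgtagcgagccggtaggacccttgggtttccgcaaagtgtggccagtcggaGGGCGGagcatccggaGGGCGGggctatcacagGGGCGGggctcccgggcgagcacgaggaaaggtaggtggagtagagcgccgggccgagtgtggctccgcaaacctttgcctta
Casp8: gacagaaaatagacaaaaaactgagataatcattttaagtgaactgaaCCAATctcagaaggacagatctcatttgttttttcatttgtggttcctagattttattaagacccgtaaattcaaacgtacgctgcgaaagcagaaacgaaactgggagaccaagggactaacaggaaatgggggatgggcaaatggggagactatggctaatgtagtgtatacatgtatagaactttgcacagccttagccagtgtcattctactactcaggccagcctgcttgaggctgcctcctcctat
Bcl2l1: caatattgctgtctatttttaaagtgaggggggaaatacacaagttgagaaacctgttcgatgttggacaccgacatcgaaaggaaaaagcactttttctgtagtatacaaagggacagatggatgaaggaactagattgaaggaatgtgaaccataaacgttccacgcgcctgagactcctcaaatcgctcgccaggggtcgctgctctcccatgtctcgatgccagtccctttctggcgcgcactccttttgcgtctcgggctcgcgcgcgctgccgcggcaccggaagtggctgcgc

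The Bid window held 3 GC boxes and 63.3% G and C, and the Casp8 window held a single CCAAT box and 42.0% G and C. Neither element was found in the Bcl2l1 window, which had 52.3% G and C. The median window of all genes had 52.7% G and C, 35.7% of the 32851 windows held the GC box and 37.4% held the CCAAT box. The ATF4 and CHOP element TTGCATCA, found in 0.895% of all windows on either strand, was in none of the 11 windows of these genes, and the AP-1 element TGAGTCA, found in 5.20%, was in that of Fas alone. These matches describe the letters of the windows, and no binding was measured.

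The libraries were even in depth, with rounded expected counts (estimated reads per gene) summing to between 19374255 and 20184560 and 16082 to 16738 genes listed. All 10 hepatocyte markers had reads in each library, with summed FPKM (reads scaled to transcript length and library depth) between 49595 and 61925. Markers of other cells moved with the conditions. The summed FPKM of 12 stellate cell and myofibroblast markers was 27.8 in CD, 63.6 in HFD, 43.2 in JT003-HFD, 27.0 in Oil, 87.4 in CCl4 and 49.1 in JT003-Fibrosis. That of 13 Kupffer cell and macrophage markers was 162, 183, 238, 38.5, 141 and 202 in the same order, with no marker at 0, and that of 10 dividing-cell markers was 1.10, 2.19, 2.88, 2.04, 91.3 and 7.03. Their part in the results below was not tested. In bulk liver, fewer cells of a type and less RNA per cell cannot be told apart.

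Per length, the genes fell into a wide order of levels. Mcl1 was the most abundant, between 19.71 and 34.94 FPKM, and Bcl2l1 had 13.51 to 23.96, Casp8 12.96 to 20.68 and Fas 10.54 to 15.10 FPKM. Bak1 had 6.60 to 9.04, Bid 4.04 to 8.29, Tnfrsf10b 1.35 to 3.78 and Bcl2l11 1.54 to 2.27 FPKM. Bcl2 was the least abundant at 0.20 to 0.37 FPKM and 28 to 49 counts, so that Bcl2 made up between 0.468% and 0.764% of the summed FPKM of the survival genes Mcl1, Bcl2l1 and Bcl2. The highest library was over 2 times the lowest in FPKM for Tnfrsf10b (2.80 times) and Bid (2.05 times), and under 2 times for the other 7 genes.

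**Figure D1:**
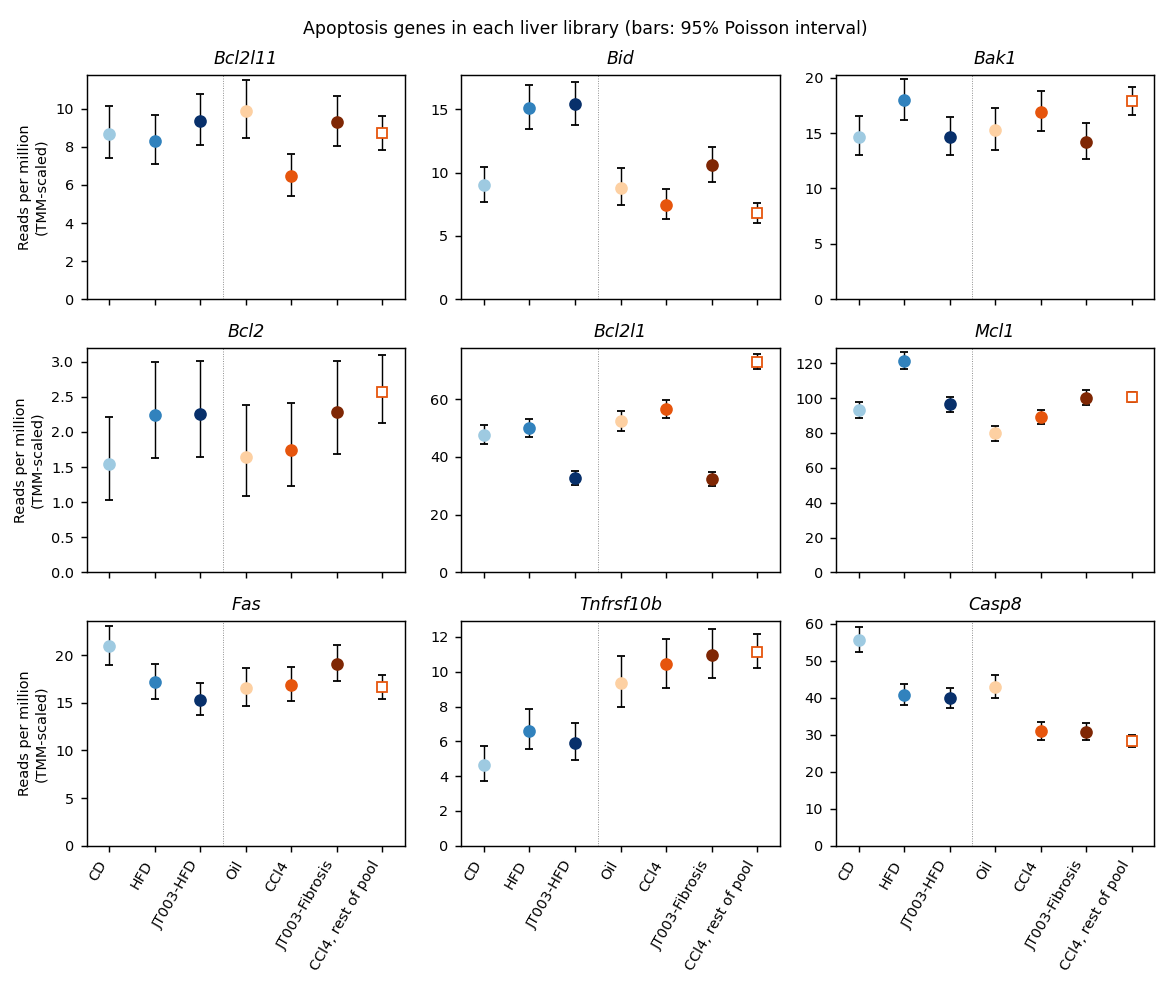
Each panel plots 1 gene in the 6 libraries, with the y axis in TMM-scaled CPM (reads per library depth) from 0 and bars for the 95% Poisson interval of the count. The open square is the pooled CCl4 column of the authors less the CCl4 library. Bcl2l1 is lowest in the JT003-HFD and JT003-Fibrosis libraries (32.7 and 32.2 CPM) and Bid is highest in HFD and JT003-HFD (15.1 and 15.4).

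Each comparison sets the reads of 2 libraries against each other, so it has no replicate check and compares those libraries rather than the conditions. Library sizes were scaled by TMM within a model. The split of a gene's reads between the libraries was compared with that of the library sizes by an exact binomial test, which was two-sided, and p-values were adjusted by Benjamini and Hochberg over all genes tested. A difference was called 2-fold where the adjusted p was under 0.001 and the log2 ratio was 1 or more in either direction, and a difference with an adjusted p under 0.001 at any size was taken as beyond counting error. Intervals are 95% Clopper-Pearson intervals of the log2 ratio and cover counting error only, since 1 library per condition gives no spread between mice. The reads carry no molecular identifiers, so copies of 1 molecule cannot be told apart. Of the 9 genes, 0 were called 2-fold in any of 6 comparisons. The call took in 5.44% of all genes for HFD over CD, 1.67% for JT003-HFD over HFD, 7.26% for CCl4 over Oil, 4.45% for JT003-Fibrosis over CCl4, 5.98% for JT003-HFD over CD and 5.05% for JT003-Fibrosis over Oil. Differences beyond counting error were found for 3, 2, 1, 2, 4 and 3 of the 9 genes in the same order, where 23.6%, 14.3%, 26.3%, 24.1%, 26.8% and 20.6% of all genes had one. The median log2 ratio of the 9 genes was 0.29 for HFD over CD, -0.16 for JT003-HFD over HFD, 0.11 for CCl4 over Oil and 0.18 for JT003-Fibrosis over CCl4, with a median of all genes between -0.01 and 0.00. Where a coefficient of variation between mice of 0.2 was assumed in edgeR's exact test, 0 of the 9 genes passed the adjusted limit in the 6 comparisons and 0 had an unadjusted p under 0.05, the nearest being Bcl2l1 in JT003-Fibrosis over CCl4 (exact test, p = 0.0551). Few of all genes passed the adjusted limit in this setting either, at 1.05%, 0.111%, 2.01%, 0.949%, 1.19% and 0.796% in the same order.

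**Figure D2:**
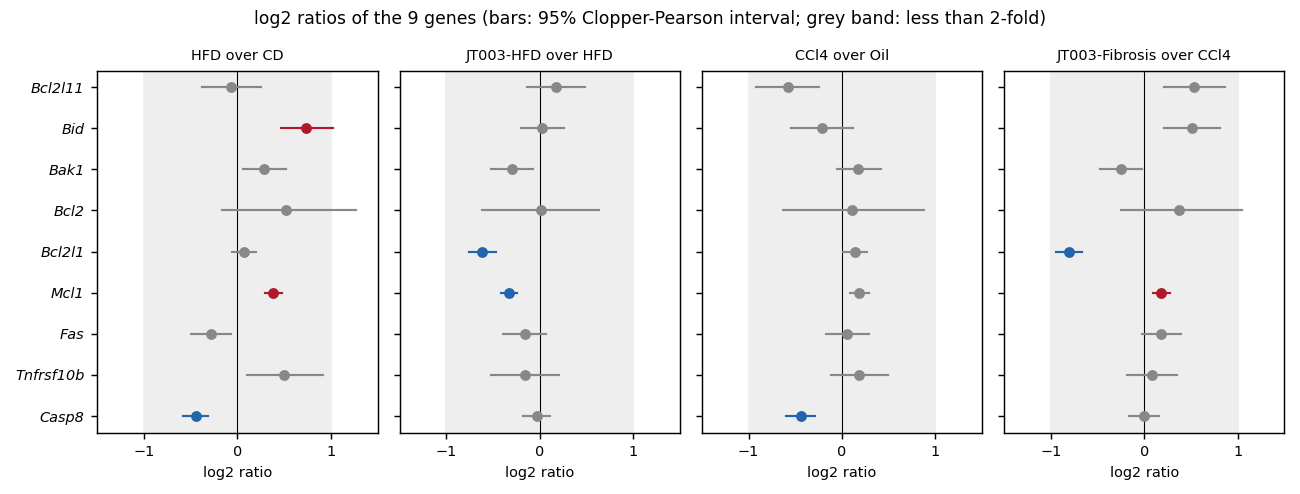
Points are log2 ratios of the 9 genes in 4 comparisons with 95% Clopper-Pearson intervals. Red and blue mark genes higher and lower beyond counting error, and the grey band spans less than 2-fold. The point estimates all lie inside the band, and Bcl2l1 is the gene that is lower beyond counting error in both comparisons with JT003.

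Bid was higher in both libraries on high-fat diet than in the other 4. Its counts were 170 in CD, 303 in HFD and 314 in JT003-HFD, and 150 in Oil, 158 in CCl4 and 227 in JT003-Fibrosis. The Poisson intervals of the CPM in the 2 libraries on high-fat diet did not reach those of the other 4. The share of all genes set apart in this way was not taken. Between models, the model and any difference in handling cannot be told apart. HFD was above CD by a log2 ratio of 0.74 (interval 0.47 to 1.02), a 1.67-fold difference (exact binomial test, adjusted p = 3.17e-07), and 0.76 (0.50 to 1.05) for JT003-HFD over CD. Between JT003-HFD and HFD it was 0.03 (-0.20 to 0.26), an interval that holds no difference as well as small ones in either direction. In the CCl4 model, Bid was at -0.21 (-0.54 to 0.12) for CCl4 over Oil and at 0.51 (0.21 to 0.81) for JT003-Fibrosis over CCl4 (exact binomial test, adjusted p = 0.00239), which missed the limit of 0.001.

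Bcl2l11, the gene of BIM, had 164, 167 and 191 counts in CD, HFD and JT003-HFD and 168, 137 and 200 counts in Oil, CCl4 and JT003-Fibrosis. The CCl4 library was the lowest of the 6. Its log2 ratio was -0.06 (-0.38 to 0.25) for HFD over CD and 0.17 (-0.14 to 0.48) for JT003-HFD over HFD. In the CCl4 model it was -0.58 (-0.92 to -0.25) for CCl4 over Oil and 0.53 (0.21 to 0.86) for JT003-Fibrosis over CCl4, and both missed the limit (exact binomial test, adjusted p = 0.0016 and 0.00324). These comparisons share the CCl4 library, whose count enters both ratios.

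Bak1, which encodes the pore-forming protein BAK, had 277, 361 and 299 counts in the diet model and 260, 359 and 305 counts in the CCl4 model. In each model the library with disease and without JT003 was the highest, and its count enters both ratios of that model. The differences were small, at 0.29 (0.06 to 0.52) for HFD over CD, -0.29 (-0.52 to -0.07) for JT003-HFD over HFD, 0.18 (-0.06 to 0.41) for CCl4 over Oil and -0.24 (-0.47 to -0.02) for JT003-Fibrosis over CCl4. None of the 4 passed the test (exact binomial test, adjusted p = 0.0372, 0.0376, 0.254 and 0.0754). Scaled to Actb, the ratios of Bak1 were 0.21, 0.04, -0.13 and 0.12 in the same order, where the median of all genes was -0.06, 0.32, -0.28 and 0.36.

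Among the survival genes, Bcl2l1 was lower in both libraries with JT003. Its counts were 900 in CD, 1005 in HFD and 667 in JT003-HFD, and 893 in Oil, 1199 in CCl4 and 692 in JT003-Fibrosis. The libraries with JT003 were the 2 lowest of the 6, below both disease libraries and both controls. The log2 ratio was -0.61 (-0.76 to -0.47) for JT003-HFD over HFD, or 0.654 times the level in HFD (exact binomial test, adjusted p = 2.04e-16). It was -0.80 (-0.94 to -0.67) for JT003-Fibrosis over CCl4, or 0.574 times the level in CCl4 (exact binomial test, adjusted p = 3.69e-31). Against the controls the ratios were -0.54 (-0.69 to -0.40) for JT003-HFD over CD and -0.67 (-0.81 to -0.52) for JT003-Fibrosis over Oil, both beyond counting error. Neither disease library differed from its control beyond counting error, at 0.07 (-0.06 to 0.20) for HFD over CD and 0.14 (0.01 to 0.26) for CCl4 over Oil. Scaled to Actb, the reference gene of the study's qPCR, the fall was smaller at -0.28 in the diet model and -0.44 in the CCl4 model. The median of all genes was then 0.32 and 0.36.

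Mcl1 was highest in the HFD library. Its counts were 1754 in CD, 2438 in HFD and 1968 in JT003-HFD, and 1356 in Oil, 1884 in CCl4 and 2151 in JT003-Fibrosis. The HFD library stood above the other 5, and JT003-HFD and CD had overlapping intervals of the CPM. The log2 ratio was 0.38 (0.29 to 0.47) for HFD over CD (exact binomial test, adjusted p = 1.43e-16), -0.33 (-0.42 to -0.25) for JT003-HFD over HFD (adjusted p = 5.75e-13 by the same exact test) and 0.05 (-0.04 to 0.15) for JT003-HFD over CD. In the CCl4 model it was 0.19 (0.08 to 0.29) for CCl4 over Oil, which missed the limit (exact binomial test, adjusted p = 0.00111), 0.18 (0.09 to 0.27) for JT003-Fibrosis over CCl4 and 0.37 (0.27 to 0.47) for JT003-Fibrosis over Oil, both beyond counting error. Scaled to Actb, Mcl1 was level between JT003-HFD and HFD at 0.00, while the median of all genes was then 0.32.

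Bcl2 had few counts, so its intervals were wide and small differences could not be detected at this depth. It had 29, 45 and 46 counts in CD, HFD and JT003-HFD and 28, 37 and 49 counts in Oil, CCl4 and JT003-Fibrosis. The controls were the lowest library of each model. The interval for HFD over CD ran from -0.16 to 1.27 and that for JT003-Fibrosis over CCl4 from -0.25 to 1.05. Both held no difference and a 2-fold rise, but not a 2-fold fall. Those for JT003-HFD over HFD (-0.62 to 0.63) and CCl4 over Oil (-0.63 to 0.88) held no difference and no 2-fold one. The FPKM of Bcl2 also depends on the transcript length estimated in each library, which ran from 6061 bases in HFD to 7209.

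The make-up of the survival transcripts of Mcl1, Bcl2l1 and Bcl2 differed between libraries. Bcl2l1 made up 42.1% of the summed FPKM of Mcl1, Bcl2l1 and Bcl2 in CD, 36.7% in HFD and 32.3% in JT003-HFD, and 48.4% in Oil, 47.3% in CCl4 and 31.4% in JT003-Fibrosis. The libraries with JT003 had the lowest shares. The sum of these survival genes over the sum of Bak1, Bid and Bcl2l11 was 3.29 in CD, 2.94 in HFD and 2.35 in JT003-HFD, and 3.03 in Oil, 3.51 in CCl4 and 2.86 in JT003-Fibrosis. With Bax, a pore-forming gene outside the 9, added to the sum of Bak1, Bid and Bcl2l11, the ratios were 1.51, 1.42 and 1.21 in the diet model and 1.13, 0.788 and 0.661 in the CCl4 model. CCl4 then lay below Oil instead of above it, while the library with JT003 was the lowest of its model either way. These sums describe transcripts in whole liver and were not tested. They leave out other genes of the family. Among these are the survival gene Bcl2l2 (5.06 to 7.62 FPKM) and the BH3-only gene Bad (10.28 to 23.66 FPKM), named because their values were seen.

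The death-receptor genes Fas and Tnfrsf10b did not differ beyond counting error in the 4 comparisons of disease with control or of JT003 with disease. Fas had 395, 345 and 313 counts in CD, HFD and JT003-HFD and 282, 358 and 410 counts in Oil, CCl4 and JT003-Fibrosis. CD and JT003-Fibrosis were the highest libraries in CPM and in FPKM, while the lowest was JT003-HFD in CPM (15.3, against 16.6 in Oil) and Oil in FPKM (10.54, against 11.19 in JT003-HFD). Its log2 ratio was -0.28 (-0.50 to -0.07) for HFD over CD, -0.16 (-0.39 to 0.06) for JT003-HFD over HFD, 0.06 (-0.17 to 0.29) for CCl4 over Oil and 0.18 (-0.02 to 0.39) for JT003-Fibrosis over CCl4. Against CD, JT003-HFD was lower by a log2 ratio of -0.45 (-0.67 to -0.23; exact binomial test, adjusted p = 0.000168).

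Tnfrsf10b, the only TRAIL receptor with a death domain in the mouse, had 88, 133 and 121 counts in CD, HFD and JT003-HFD and 159, 221 and 236 counts in Oil, CCl4 and JT003-Fibrosis. The 3 libraries of the CCl4 model were above the 3 of the diet model, the Oil control included. Its log2 ratio was 0.50 (0.11 to 0.91) for HFD over CD (exact binomial test, adjusted p = 0.032) and -0.16 (-0.53 to 0.21) for JT003-HFD over HFD. In the CCl4 model it was 0.18 (-0.11 to 0.49) for CCl4 over Oil and 0.08 (-0.19 to 0.36) for JT003-Fibrosis over CCl4. Between models the libraries were not compared by a test, since the model and any difference in handling cannot be told apart.

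Casp8 was lower in disease than in control in both models, and the libraries with JT003 lay close to the disease libraries. It had 1050 counts in CD, 820 in HFD and 814 in JT003-HFD, and 731 in Oil, 658 in CCl4 and 661 in JT003-Fibrosis. Each control was the highest library of its model. The log2 ratio was -0.45 (-0.58 to -0.31) for HFD over CD and -0.44 (-0.59 to -0.29) for CCl4 over Oil, or 0.734 and 0.738 times the control (exact binomial test, adjusted p = 1.98e-10 and 9.02e-08). The 2 libraries with JT003 were at -0.03 (-0.17 to 0.11) against HFD and -0.00 (-0.16 to 0.15) against CCl4. The CCl4 value rests on the scaling in size, since Casp8 was at -0.21 when libraries were scaled to total counts, where the median of all genes was 0.23.

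The authors' table of CCl4 against JT003 holds a second CCl4 column, whose expected counts sum to 2.97 times those of the CCl4 library and appear to pool it with others. This is inferred from the values, as 24 genes lay below their count in the library, by 0.99 at most, and the table names no libraries. Taking off the CCl4 library leaves a remainder of reads that are not in that library. In the remainder, Bcl2l1 had 3203 and Mcl1 4417 counts, higher than in the CCl4 library by log2 ratios of 0.37 (0.27 to 0.46) and 0.18 (0.10 to 0.26). These were the 2 of 9 genes that differed beyond counting error between the remainder and the CCl4 library, where 20.5% of all genes did. For Bcl2l1 the fall with JT003 was larger than this gap, and against the remainder it reached -1.16 (-1.28 to -1.04), a 2-fold call that 4.66% of all genes had. For Mcl1 the gap was as large as the difference with JT003, and against the remainder JT003-Fibrosis was at 0.01 (-0.06 to 0.09).

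With the remainder in place of the CCl4 library, Bid was higher in JT003-Fibrosis by 0.65 (0.40 to 0.91), which passed the limit (exact binomial test, adjusted p = 1.82e-06). Bid and Bcl2l1 were the 2 genes that differed beyond counting error in this setting, where 27.2% of all genes did. The 298 counts of Bid in the remainder kept it below the JT003-Fibrosis library in CPM. Bcl2l11 stood at 0.12 (-0.14 to 0.37) against the remainder, and the remainder was above the CCl4 library by 0.43 (0.14 to 0.72), which missed the limit (exact binomial test, adjusted p = 0.0101). Casp8 was lower than Oil by -0.59 (-0.73 to -0.46) in the remainder, and Bcl2l1 and Mcl1 were higher than Oil by 0.49 (0.38 to 0.60) and 0.35 (0.26 to 0.44), all 3 beyond counting error, as were 32.7% of all genes.

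**Figure D3:**
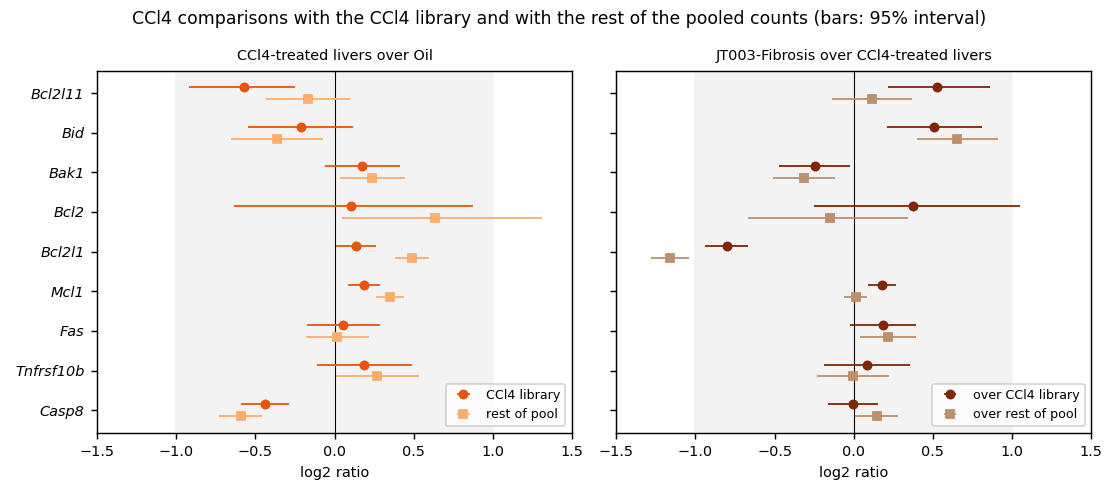
Points are log2 ratios of the 9 genes with 95% intervals, left for CCl4-treated livers over Oil and right for JT003-Fibrosis over CCl4-treated livers. Circles use the CCl4 library and squares the remainder of the pooled counts. Bcl2l1 on the right lies at -0.80 and at -1.16, and Bcl2l11 and Mcl1 move to 0.12 and 0.01.

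The other genes of the pathway were taken from 5 lists (BCL2 family, death receptors and ligands, adaptors and inhibitors, apoptosome and caspases, upstream regulators), which hold 68 genes besides the 9. In HFD over CD, 1 of the 66 tested was called 2-fold higher and 1 lower. In JT003-HFD over HFD 1 was higher and 2 were lower, in CCl4 over Oil 4 of 67 were higher and 3 lower, and in JT003-Fibrosis over CCl4 1 of 66 was higher and 3 lower. Of all genes, 2.96% and 2.48% were called higher and lower in the first comparison, 0.766% and 0.901% in the second, 4.80% and 2.46% in the third and 1.91% and 2.54% in the fourth. Beyond counting error at any size, 8 of the 66 tested were higher and 5 lower in the first comparison, where 10.3% and 13.3% of all genes were. The counts were 5 and 9 in the second (7.59% and 6.72% of all genes), 10 and 8 in the third (14.1% and 12.2%) and 12 and 12 in the fourth (9.81% and 14.3%).

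Among the upstream regulators, Ddit3, which encodes the stress factor CHOP, had 62, 273 and 84 counts in CD, HFD and JT003-HFD. It rose by a log2 ratio of 2.01 and fell by 1.70, both 2-fold calls that share the HFD library, and with 109, 165 and 180 counts in Oil, CCl4 and JT003-Fibrosis it was at 0.31 and 0.11 in the CCl4 model. Cdkn1a, the p53 target that encodes p21, had 828, 295 and 94 counts in the diet model and 1050, 3208 and 783 in the CCl4 model. It fell in HFD over CD (-1.57) and rose in CCl4 over Oil (1.32), and it fell with JT003 in both models (-1.65 and -2.04). Trp53 itself had 393, 391 and 318 counts and 407, 533 and 426 counts, with no 2-fold call. Jun, an AP-1 subunit, rose with CCl4 from 349 to 1367 counts (1.68) and had 1063 in JT003-Fibrosis.

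Within the BCL2 family, Bax, the partner of Bak1, had 262, 339 and 285 counts in the diet model and 354, 855 and 886 in the CCl4 model. It was 0.98 higher in CCl4 than in Oil, beyond counting error and just under the 2-fold limit, and 0.04 apart between JT003-Fibrosis and CCl4. Of the BH3-only genes, Bmf had 78, 137 and 226 counts in CD, HFD and JT003-HFD. It stood at 0.71 for HFD over CD, close to the value of Bid, which missed the limit (exact binomial test, adjusted p = 0.00152), and it rose by 0.69 for JT003-HFD over HFD and by 1.40 for JT003-HFD over CD, the last a 2-fold call. In the CCl4 model Bmf fell from 134 to 61 counts (-1.39) and was at 143 in JT003-Fibrosis (1.19). Pmaip1, which encodes NOXA and is named because its values were seen, had 11, 26 and 35 counts in the diet model and did not pass the limit there. Bik fell with CCl4 from 190 to 100 counts (-1.20) and had 125 in JT003-Fibrosis, with 96, 101 and 143 in the diet model. Bnip3 fell with CCl4 from 5317 to 3008 counts (-1.11) and had 5719 in JT003-Fibrosis. In CD, HFD and JT003-HFD, Bnip3 had 4438, 3603 and 5898 counts. Bbc3, which encodes PUMA, rose from 35 counts in HFD to 92 in JT003-HFD (1.32) and had 137, 153 and 123 in the CCl4 model. Bok fell from 234 to 112 counts with JT003 in the CCl4 model (-1.06). Bcl2a1b, a survival gene with near-identical copies, was called with 5 and 34 counts in Oil and CCl4, counts this low leaving its size uncertain, and it is named here because its value was seen.

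Of the receptor ligands, Fasl had 0 to 3 counts in each library, at or under the limit that a count of 0 allows, and no ratio is given. Tnfsf10, the gene of TRAIL, had 78, 121 and 169 counts in the diet model and 68, 45 and 91 in the CCl4 model, and differed beyond counting error in JT003-Fibrosis over CCl4 (0.97) and JT003-HFD over CD (0.98). Birc5, a mitotic inhibitor of apoptosis, had 51, 537 and 79 counts in Oil, CCl4 and JT003-Fibrosis (3.06 and -2.74), alongside the summed dividing-cell markers at 2.04, 91.3 and 7.03 FPKM, and its relation to them was not tested.

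**Figure D4:**
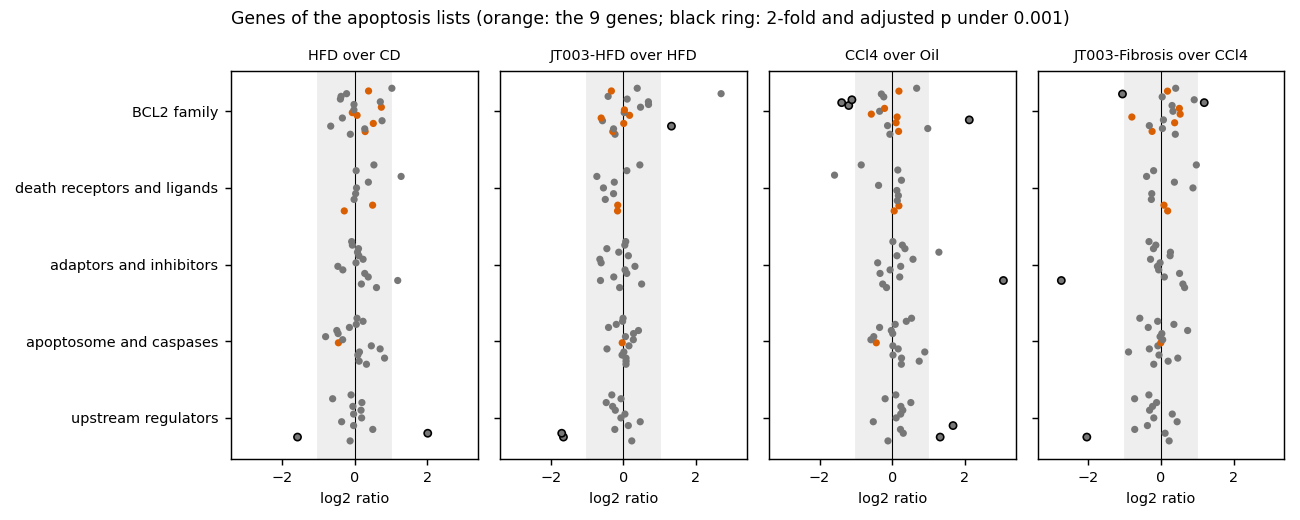
Each point is a gene of the 5 apoptosis lists with 10 counts or more in 1 of the libraries, placed by its log2 ratio in 4 comparisons. Orange marks the 9 genes and black rings mark 2-fold calls. The 9 genes lie within the grey 2-fold band, and the ringed genes include Ddit3 and Cdkn1a among the upstream regulators and Birc5 among the adaptors and inhibitors.

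Genes with the most similar pattern over the 6 libraries were sought for Bid and Tnfrsf10b, the genes with over 2-fold spread. Among 9376 genes, Lrat (Pearson r 0.997), Ddx3y (0.995) and Depdc7 (0.993) were most like Bid, and 145 genes had r above 0.95. For Tnfrsf10b these were Rarres2 (0.996), Rnf8 (0.996) and Snrpd3 (0.994), with 141 genes above 0.95. With 6 points that share their depth and processing, such values are a description.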

How the data were processed

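Liver RNA of male mice was sequenced in 6 libraries, 1 per condition, so groups follow the sample titles and no spread between mice could be estimated. For each library the authors deposited an expected count per gene, their estimate of its reads without normalization, and an FPKM per gene, scaled by the authors to transcript length and library depth. The submitters' processing notes name HISAT, Bowtie2, RSEM and the build mm9, without roles or versions. Of the 4 comparison tables of the authors, which hold their fold changes and p-values, only the pooled CCl4 column of 1 was used, since the other 3 repeat the FPKM of the libraries. FPKM depends on the length estimated in each library, and a read shared by genes or isoforms is split by the estimate.

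Expected counts were rounded to whole numbers, rows without a gene identifier were left out (at most 0.000242% of the counts), and TMM factors were fitted within each model, which has 3 libraries (edgeR 4.0.16, R 4.3.3). Genes with at least 1 read in the pair of libraries (16972 to 17393 in the 6 comparisons) entered an exact binomial test, two-sided and conditional on the reads of both (scipy 1.17.1, Python 3.11.15), with Benjamini-Hochberg adjustment. Log2 ratios used a prior count of 2. Alternatives were total counts, DESeq2 1.42.0 size factors, TMM over 6 libraries, Actb, filters of 10 and 100 counts, a prior count of 0.5, a log2 limit of 0.58, an adjusted p under 0.05, edgeR's exact test with assumed coefficients of 0.2 and 0.4, log2 of the FPKM plus 0.1 or 1, and the pooled CCl4 counts. The 9 genes, the 5 pathway lists and the 13 cell type lists were chosen with earlier results of these data known. Other pathway genes are named where called 2-fold in 1 of 4 comparisons with 50 or more counts in either library, and Ddit3, Trp53, Jun, Bax, Fasl and Tnfsf10 whatever their values. Similar genes were sought by Pearson correlation of log2(FPKM + 0.1) among genes with at least 100 counts on average, for members with a 2-fold range of FPKM. RefSeq windows (GRCm38.p6) give sequence only, since the files hold no coordinates.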

Additional observations from a re-analysis of the deposited data

Results flagged for a closer look

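Mcl1 went opposite ways with JT003 in the 2 models. It was lower in JT003-HFD than in HFD (log2 ratio -0.33) and higher in JT003-Fibrosis than in CCl4 (0.18), each beyond counting error, and the difference between the models was not tested. Against the remainder of the pooled CCl4 counts the second value was 0.01.

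Fas was lower in JT003-HFD than in CD (-0.45) and had a log2 ratio of 0.24 for JT003-Fibrosis over Oil, which did not pass the test. The difference between the models was not tested here either.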

How the results depend on the processing

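No paired analysis was possible because each condition had 1 library, and no replicate could be left out. Of the 516 values of single genes under an alternative, 444 stayed within the 95% counting interval of the reported value and 71 moved outside it, among them 25 with Actb scaling, 12 with total counts, 24 with FPKM and 10 with the pooled CCl4 counts. Of the 15 differences beyond counting error, 14 kept their sign under the 4 other scalings, and the other, Mcl1 in JT003-HFD over HFD, was at 0.0039 scaled to Actb. Total counts put the median log2 ratio of all genes at 0.12 for HFD over CD, 0.23 for CCl4 over Oil and 0.32 for JT003-Fibrosis over Oil, and Actb put it at 0.32 for JT003-HFD over HFD, -0.28 for CCl4 over Oil and 0.36 for JT003-Fibrosis over CCl4.

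The count of genes called 2-fold, 0 in the 6 comparisons, was 1 with a log2 limit of 0.58 in each comparison but CCl4 over Oil, 1 with Actb scaling in JT003-HFD over CD (Bid), and 1 with the pooled counts or their remainder in JT003-Fibrosis over CCl4 (Bcl2l1). The count beyond counting error was 0 in the 6 comparisons where edgeR's exact test was run assuming a coefficient of variation of 0.2 or 0.4. Of all genes, 0.111% to 2.01% passed with 0.2 and at most 0.342% with 0.4. At an adjusted p under 0.05 the count beyond counting error was 6 for HFD over CD, 3 for CCl4 over Oil and 4 for JT003-Fibrosis over CCl4. The share of all genes was not taken at that limit. For CCl4 over Oil it was 2 with total counts, TMM over 6 libraries, Actb or the filter at 10 counts, and 3 with the filter at 100 counts, the pool or its remainder. For JT003-Fibrosis over CCl4 it was 4 with total counts and 6 with Actb, and for JT003-Fibrosis over Oil it was 5 with total counts. Actb put the median log2 ratio of all genes at 0.36 in the former, and total counts put it at 0.32 in the latter. With the other scalings, the filters or the log2 limit of 0.58, the share of all genes passing was not taken. Counts in those settings are therefore not a result about these genes. Depth limits Bcl2, with 28 to 49 counts, and Tnfrsf10b in the diet model, with 88 to 133.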

Other observations

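The CD and Oil controls, which the design does not compare, had Poisson intervals that did not meet for Tnfrsf10b, Casp8, Mcl1 and Fas. The share of all genes with such a gap was not taken, so it is not a result about these genes. Tnfrsf10b had 4.67 CPM (scaled counts per library depth) in CD (95% Poisson interval 3.74 to 5.75) and 9.35 in Oil (7.95 to 10.9), and Casp8 had 55.7 (52.4 to 59.1) and 43.0 (39.9 to 46.2). Mcl1 had 93.0 (88.7 to 97.4) and 79.7 (75.6 to 84.1), and Fas had 20.9 (18.9 to 23.1) and 16.6 (14.7 to 18.6). Bid was level at 9.01 and 8.82. The Oil mice were injected with corn oil, and the summed Kupffer cell and macrophage markers were at 162 FPKM in CD and 38.5 in Oil. The diet model ran for 16 weeks and the CCl4 model for 6 weeks. The model, its length, the age of the mice, the injection and these markers cannot be told apart here.

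Markers of further cell types gave these summed FPKM in CD, HFD, JT003-HFD, Oil, CCl4 and JT003-Fibrosis. Bile duct markers were at 24.0, 32.7, 23.6, 33.1, 116 and 114, and endothelial markers at 102, 111, 136, 64.9, 42.8 and 68.8. Neutrophil markers ranged from 10.1 to 21.8, T and NK cell markers from 1.82 to 5.12 and B cell markers from 1.39 to 4.30, each lowest in CD, CCl4 and HFD respectively. Red blood cell markers ranged from 343 to 711, pancreatic acinar markers from 4.99 to 14.4 and skeletal muscle markers from 0.28 to 1.17. Adipocyte markers were at 158 in CD and 61.1 in Oil and at 6.40 to 24.0 in the other 4 libraries, with 1 to 4 of 5 markers at 0 in each library.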
